A study of Mus musculus with 30 samples.

Results

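The gastrocnemius, a calf muscle of the hind limb, was set against the triceps brachii, a muscle at the back of the upper forelimb, in male mice 3 days after sham surgery. The comparison took the 8 sham libraries whose descriptions open with the number 60, of 30 libraries in the series. Its groups were 4 gastrocnemius and 4 triceps libraries of sham mice, numbered 1, 2, 4 and 5 in both muscles and called replicates 1 to 4 here. That a number marks 1 mouse is an inference from the descriptions, and libraries with the same number did not deviate together in every case. All these mice had the surgery of a spinal cord experiment without the injury, and no untreated mouse was used. The other libraries were the triceps of 2 sham mice with the opening number 57 and both muscles of mice with a spinal cord injury at thoracic level 3 (T3) or 9 (T9), also taken on day 3. The sources do not state the strain, the age, the side of the body, the part of each muscle or the meaning of 57 and 60.

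Skeletal muscles of the 2 limbs form from cells that leave the embryonic somites, while the connective tissue around them carries a position code of Hox and other transcription factors. Each muscle then has its own mix of slow and fast fibres, and fast fibres express the myosins Myh2, Myh1 and Myh4. A muscle sample also holds vessels, fat, connective tissue and the nerve branches that reach it, whose axons are wrapped in myelin by Schwann cells. In such bulk samples, fewer cells of a type and less RNA per cell cannot be told apart.

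RNA with a polyA tail was sequenced as strand-specific pairs, and values are counts per 1000000 reads assigned to genes (CPM), or their log2. The libraries held between 15484711 and 21382478 reads in the gastrocnemius and between 13293557 and 17797621 in the triceps. All 8 libraries held skeletal muscle genes at high levels, which does not tell the muscles apart: Acta1, skeletal actin, lay between 11563 and 36902 CPM and Ckm, muscle creatine kinase, between 13027 and 20648 CPM. The median log2 value over genes was 3.86, 4.02, 4.06 and 3.66 in the gastrocnemius, against 3.71, 3.91, 3.29 and 3.55 in the triceps. Gastrocnemius replicate 4 and triceps replicate 3 are the low-median libraries that were left out in a further comparison; triceps replicate 4, at 3.55, also lay below that gastrocnemius library. Triceps replicate 4 stood apart in macrophage markers, with a summed level of 1083 CPM over 10 genes against 31.8 to 49.1 CPM in the other triceps libraries and 23.0 to 69.5 CPM in the gastrocnemius.

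At an adjusted p under 0.05 (limma, Benjamini-Hochberg over 11243 genes), 8 genes differed between the muscles, which is 0.0712% of the genes tested. Of these, 6 were higher in the gastrocnemius (0.0534%) and 2 were lower (0.0178%), and 2003 genes (17.8%) had an unadjusted p under 0.05. The higher genes described here were Gm4841, Rasd2, Mbp, Aebp1 and Setbp1, and the 2 lower ones were Crnde and Gpx3. Gm4841 is a predicted gene outside the naming rule and is named because it was called. Nothing states that the 4 libraries of a group were prepared apart from one another beyond their mouse numbers, so p-values measure the spread between these libraries.

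Promoters are shown for 3 of the 4 called genes that had an entry among the RefSeq promoters: Rasd2, the largest difference of these, and both genes that were lower in the gastrocnemius. Each sequence gives the 250 bases before the gene's start in RefSeq, which for Gpx3 lies within the longer span that GENCODE gives the gene (below), 5′ to 3′ on the gene's strand, in the GRCm38.p6 build. Rasd2 was read at chr8:75213694-75213943 on the + strand, Crnde at chr8:92356121-92356370 on the − strand and Gpx3 at chr11:54902604-54902853 on the + strand. Capitals mark matches, on both strands, to any of 4 motifs. These were an E-box (CAGCTG), the TATA box (TATAAA), the unnamed motif (ACAAAG) and the GC box (GGGCGG).
Rasd2: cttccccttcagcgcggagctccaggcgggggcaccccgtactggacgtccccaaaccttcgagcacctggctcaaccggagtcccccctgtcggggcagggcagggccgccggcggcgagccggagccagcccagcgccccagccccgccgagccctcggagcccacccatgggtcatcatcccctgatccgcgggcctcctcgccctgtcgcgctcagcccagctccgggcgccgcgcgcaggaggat
Crnde: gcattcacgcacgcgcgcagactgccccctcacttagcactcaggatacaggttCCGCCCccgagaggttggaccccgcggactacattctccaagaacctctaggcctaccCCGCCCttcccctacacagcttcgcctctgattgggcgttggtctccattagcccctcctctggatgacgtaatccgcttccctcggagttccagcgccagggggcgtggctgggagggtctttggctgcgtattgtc
Gpx3: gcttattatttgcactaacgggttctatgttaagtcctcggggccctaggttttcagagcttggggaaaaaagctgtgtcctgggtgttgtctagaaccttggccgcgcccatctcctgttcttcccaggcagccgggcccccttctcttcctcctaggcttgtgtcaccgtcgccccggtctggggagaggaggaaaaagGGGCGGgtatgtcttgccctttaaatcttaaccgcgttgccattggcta
Rasd2 held 0 matches, Crnde 2 and Gpx3 1. All were the GC box on one or the other strand, and none overlapped. The GC box stood in 32.7% of 32851 promoters of the same length, the E-box in 13%, the TATA box in 12.4% and the unnamed motif in 16.5%. The 250 bases of Rasd2 were 75.2% G or C, those of Crnde 62.0% and those of Gpx3 55.2%, against a median of 52.4% over all promoters.

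Rasd2, which encodes a small GTPase of the Ras family, is on chromosome 8 (75213944 to 75224113, GRCm38). It had 50.1, 54.4, 49.99 and 31.1 CPM in the gastrocnemius, against 6.35, 5.65, 2.14 and 2.71 CPM in the triceps. The lowest gastrocnemius library was replicate 4, and the muscles did not overlap. The log2 difference was 3.57 ± 0.37 (SE, n = 4 per muscle), or 11.9-fold, with an adjusted p of 0.0141 in limma.

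Gm4841 is annotated with the synonym Ifgga3 and lies on chromosome 18 in the region of Iigp1, an interferon-inducible GTPase gene. It had 72.2, 25.1, 43.4 and 31.5 CPM in the gastrocnemius, against 2.47, 4.65, 2.38 and 1.58 CPM in the triceps. Every gastrocnemius library lay above every triceps library. The difference was 3.93 ± 0.40 on the log2 scale (SE), or 15.3-fold, with an adjusted p of 0.0141 in limma.

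Aebp1, which encodes a secreted protein that binds collagen, had 127, 92.4, 171 and 72.3 CPM in the gastrocnemius, against 31.1, 21.7, 12.5 and 19.3 CPM in the triceps. The groups did not overlap, and the log2 difference was 2.45 ± 0.34 (SE). Setbp1, which encodes a nuclear protein that binds SET, had 8.10, 7.88, 11.9 and 7.54 CPM in the gastrocnemius, against 2.58, 2.33, 2.50 and 2.11 CPM in the triceps. Its log2 difference was 1.86 ± 0.24 (SE), the groups did not overlap, and the adjusted p of both genes was 0.0445 in limma.

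Gpx3, the secreted glutathione peroxidase of blood plasma, is on chromosome 11 (54902453 to 54910377). It had 194, 138, 197 and 176 CPM in the gastrocnemius, against 699, 434, 517 and 465 CPM in the triceps. All gastrocnemius libraries lay below all triceps libraries, and the log2 difference was −1.57 ± 0.22 (SE, adjusted p = 0.0445 in limma). Crnde is a long non-coding RNA gene on chromosome 8, 1.51 kb from the limb patterning gene Irx5, which was not analysed here. It had 1.13, 1.16, 1.497 and 1.75 CPM in the gastrocnemius, against 4.89, 5.72, 9.71 and 5.79 CPM in the triceps. The groups did not overlap, and the log2 difference was −2.19 ± 0.30 (SE, adjusted p = 0.0445 in limma).

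**Figure D1:**
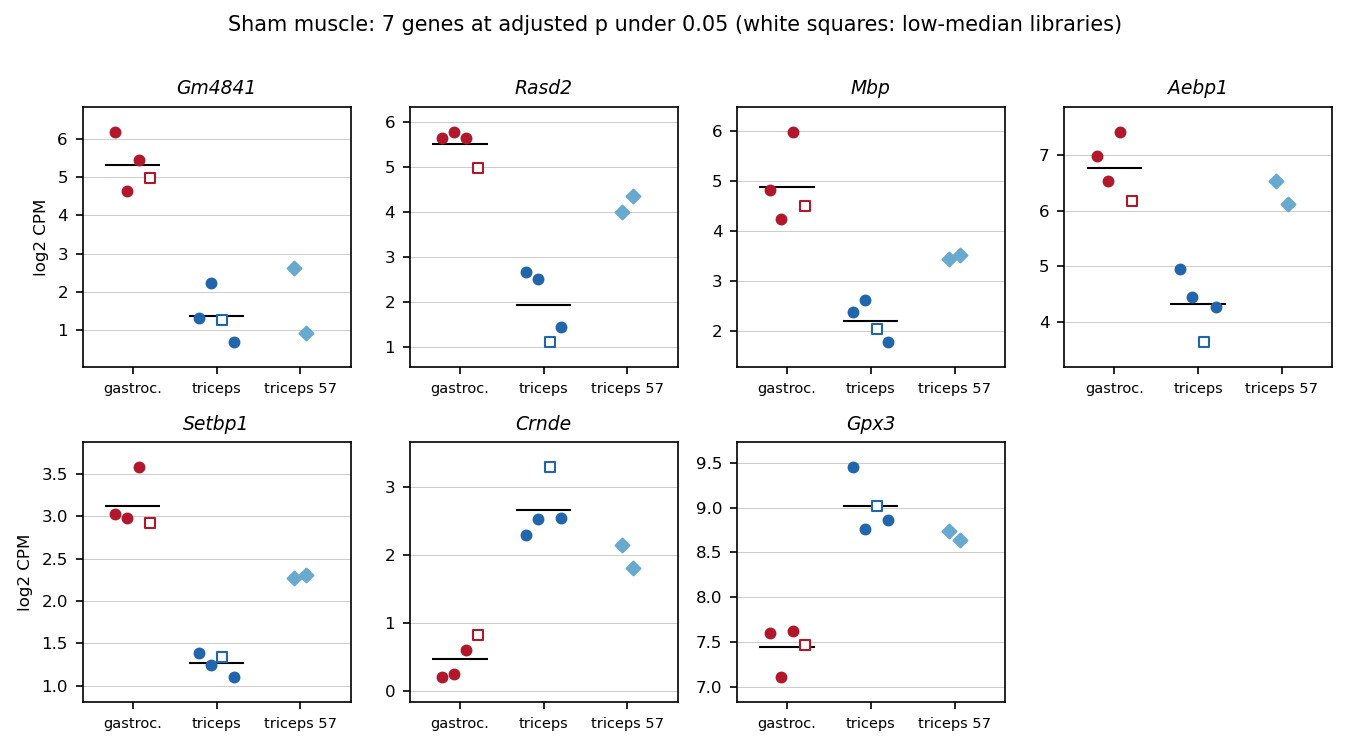
Log2 CPM of 7 genes called between the muscles in sham mice, 1 panel per gene. Red points are the 4 gastrocnemius libraries, dark blue points the 4 triceps libraries and light blue diamonds the 2 triceps libraries with the opening number 57; white squares are the low-median libraries, gastrocnemius replicate 4 and triceps replicate 3, and lines are means of 4. The red and dark blue points do not overlap in any panel, and in Aebp1 a light blue value of 93.0 CPM lies among the gastrocnemius values.

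Without the 2 low-median libraries, 3 gastrocnemius libraries stood against 3 triceps libraries, and 0 of 11243 genes (0.0%) passed an adjusted p of 0.05 in limma, while 2995 (26.6%) had an unadjusted p under 0.05. The differences of the genes described were nearly as large as before, at 4.01 for Gm4841, 3.47 for Rasd2, 2.76 for Mbp, 2.42 for Aebp1, 1.95 for Setbp1, −2.10 for Crnde and −1.58 for Gpx3 on the log2 scale. Their adjusted p was 0.0653 for Rasd2, 0.139 for Gm4841 and Aebp1 and 0.182 for Mbp, Setbp1, Crnde and Gpx3. All 8 had the same sign in both, as 10704 of the 11243 genes did. Leaving out 1 library at a time gave 0 to 3 calls: 0 without gastrocnemius replicate 1 or 3 or triceps replicate 3 or 4, Gm4841 without gastrocnemius replicate 2, Rasd2 without triceps replicate 1, both of them without gastrocnemius replicate 4, and both with Six2 without triceps replicate 2. In the same 6 libraries, with the mouse number as a random effect, 155 genes passed (1.38%), 88 higher (0.783%) and 67 lower (0.596%). The 8 genes were among them, with adjusted p between 0.0013 and 0.0247 in limma. Only mouse numbers 1 and 2 kept both muscles there, so the mouse term rested on 2 pairs.

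**Figure D2:**
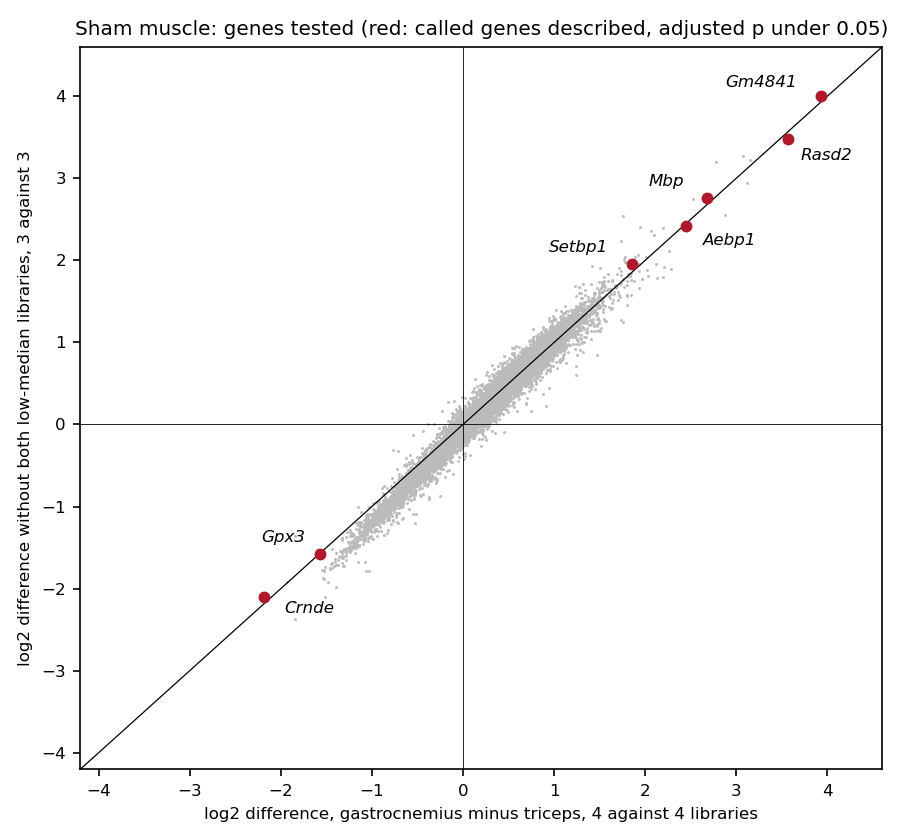
Log2 difference, gastrocnemius minus triceps, in all 8 libraries (horizontal axis) and without the low-median libraries (vertical axis); each point is a gene, grey where it was not called, red for the 7 called genes described, and the diagonal marks equal values. The red genes lie close to the diagonal, from Crnde at −2.19 and −2.10 to Gm4841 at 3.93 and 4.01.

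Pairing the muscles by mouse number left fewer or more calls, depending on how the number entered. As a fixed block it gave 5 genes (0.0445%): Rasd2 with an adjusted p of 0.0120, Gm4841 with 0.0171, Six2 with 0.0171, Gpx3 with 0.0499 and the predicted gene Gm38158 with 0.0499. As a random effect it gave 13 genes (0.116%), the 8 genes of the unpaired comparison and Six2, Hoxd9, Ampd1, Mybph and Prkag3. Gm38158, Ampd1, Mybph and Prkag3 were chosen after their values were seen. Mybph encodes a myosin-binding protein and had 154, 44.8, 128 and 73.1 CPM in the gastrocnemius, against 22.8, 19.7, 10.9 and 13.9 CPM in the triceps. Prkag3 encodes the AMP-activated kinase subunit of fast glycolytic muscle, and had 159.6, 128, 212 and 166 CPM in the gastrocnemius, against 68.9, 80.8, 66.5 and 70.2 CPM in the triceps. Neither overlapped between the muscles, with unpaired log2 differences of 2.47 ± 0.40 for Mybph (adjusted p = 0.106 in limma) and 1.20 ± 0.20 for Prkag3 (adjusted p = 0.121; SE).

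A further limma fit took all 30 libraries, with a mean for each muscle and condition and a shared shift for the opening number 57. The spread was thus pooled over sham and injured mice, unpaired. The number-57 sham triceps libraries entered the triceps mean after that shift, so the differences changed too. Their median over all genes was 0.21, beside 0.27 in the 8 libraries. The sham contrast then called 72 genes (0.64%; 52 higher, 0.463%, and 20 lower, 0.178%), and 236 genes (2.1%; 160 higher, 1.42%, and 76 lower, 0.676%) without the low-median libraries, with 69 genes called in both. Of the 8 genes of the first comparison, 7 passed in both of these fits: Gm4841, Rasd2, Mbp, Aebp1, Setbp1, Crnde and Gpx3. Among the 69 were also Hoxd9, Six2, Prx and others described below. Cyp27a1, a sterol hydroxylase gene chosen after its values were seen, had 59.6, 82.2, 80.2 and 57.5 CPM in the gastrocnemius, against 36.7, 42.7, 32.2 and 22.7 CPM in the triceps (adjusted p = 0.265 in the 8 libraries alone, 0.000748 with 30 and 0.00214 with 28). Ramp1, which encodes a receptor partner for the nerve peptide CGRP and was also chosen after its values were seen, had 66.6, 33.4, 42.3 and 92.2 CPM in the gastrocnemius, against 146, 90.6, 188 and 122 CPM in the triceps. The muscles overlapped in Ramp1 by 1 library each, and its log2 difference was −1.28 ± 0.34 (SE; adjusted p = 0.265 with 8 libraries and 0.00509 with 28).

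The same contrast in the mice with an injury used none of the sham libraries. After T3, 3470 of 11249 genes differed between the muscles (30.8%; 2529 higher in the gastrocnemius, 22.5%, and 941 lower, 8.37%), and after T9 6499 did (57.8%; 5238 higher, 46.6%, and 1261 lower, 11.2%). The excess of higher genes depended on scaling: after median centring, 1384 were higher (12.3%) and 1668 lower (14.8%) of 3052 after T3 (27.1%), and 2446 were higher (21.7%) and 2815 lower (25.0%) of 5261 after T9 (46.8%). All 8 sham genes had the sham sign after both injuries, as did 74.11% of the genes tested, and 6 of the 8 passed there with that sign, as did 25.73%. The log2 differences after T3 and T9 were 2.46 and 2.19 for Rasd2, 2.43 and 2.79 for Mbp, and −1.96 and −2.02 for Crnde. Gpx3 passed after T9 and not after T3, and is taken up below.

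In the 2 further triceps libraries of sham mice, with the opening number 57, 7 of the 8 genes stayed on the triceps side of every gastrocnemius value. Aebp1 did not, at 93.0 and 70.0 CPM. Rasd2 had 15.9 and 20.5 CPM there, above the other 4 triceps libraries and below the gastrocnemius. With these libraries added, 1 gene passed, Gm4841 (0.00889% of the genes tested; adjusted p = 0.0226 in limma). Of the other genes described as not overlapping, En1, Drp2, Kcnj11, Musk, Mylk2, Hlf, Myl9, Vwf, Ampd1, Mybph, Prkag3, Hoxa10 and Hoxa11 had at least 1 of these 57 values within or beyond the gastrocnemius range.

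Across the whole table, 408 genes (3.63%) did not overlap between 4 gastrocnemius and 4 triceps libraries, 259 higher (2.3%) and 149 lower (1.33%). Of these, 103 also had both number-57 triceps values on the triceps side of every gastrocnemius value. Scaling bears on directions: the median difference of all genes was 0.27, and centring each library on its median moved it to −0.01 and left 4 calls (0.0356%), while removing trends on transcript length and GC gave 10 (0.089%). All 408 kept their sign without the low-median libraries, which the choice of genes fixes. Differences ran with transcript length: Spearman's rho across 11234 genes was 0.506, and 0.466 without the low-median libraries, as a description of genes that are not independent of one another.

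Genes around Gm4841 were looked at after its value was seen. F830016B08Rik, annotated as Ifgga4, lies 20.1 kb from Gm4841 and 73.0 kb from Iigp1. It had 95.1, 55.9, 65.3 and 41.8 CPM in the gastrocnemius, against 11.2, 24.8, 2.87 and 6.17 CPM in the triceps. BC023105, annotated as a pseudogene 49.1 kb from Iigp1, had 128, 90.8, 118 and 137 CPM in the gastrocnemius, against 58.4, 55.4, 53.3 and 37.8 CPM in the triceps. Both were above the triceps in every gastrocnemius library, with log2 differences of 2.88 ± 0.57 (adjusted p = 0.248 in limma) and 1.21 ± 0.22 (adjusted p = 0.182; SE). Iigp1 itself differed by 0.67 ± 0.24 and overlapped by little, with 10.0 to 17.9 CPM in the gastrocnemius, against 7.58 to 10.2 CPM in the triceps. Related GTPase genes on other chromosomes, Igtp and Irgm2, had differences of 1.37 ± 0.40 and 0.94 ± 0.36 (SE, adjusted p = 0.265 for each in limma). These genes are close copies of one another, so how the authors' counting shared reads among them is uncertain.

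Of the lists with 4 or more genes tested, the myelin genes had the highest median difference. Of 12 Schwann cell and nerve markers, 5 were in the table, and their median log2 difference was 2.53, and 2.74 without the low-median libraries, beside 0.27 and 0.26 for all genes. Mbp, myelin basic protein, was the 1 member called: 28.2, 18.9, 63.0 and 22.5 CPM in the gastrocnemius, against 5.17, 6.12, 4.09 and 3.39 CPM in the triceps (log2 difference 2.68 ± 0.37, SE, adjusted p = 0.0445 in limma). It did not overlap between the muscles, and gastrocnemius replicate 3 was the highest library.

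Prx, periaxin of the myelin sheath, had 7.68, 10.1, 24.8 and 5.89 CPM in the gastrocnemius, against 2.81, 2.39, 1.59 and 0.903 CPM in the triceps. Pmp22, a protein of compact myelin, had 16.6, 20.9, 52.5 and 18.6 CPM in the gastrocnemius, against 8.71, 8.11, 8.18 and 16.2 CPM in the triceps. In both genes replicate 3 was again the highest and the muscles did not overlap, with log2 differences of 2.53 ± 0.49 for Prx and 1.29 ± 0.39 for Pmp22 (SE). Neither passed in the 8 libraries (adjusted p = 0.246 and 0.265 in limma). Both passed in the limma fit of 30 libraries (0.00566 and 0.0234) and in that of 28 (0.0109 and 0.0282). Drp2, the Schwann cell partner of periaxin, chosen after its values were seen, differed by 2.27 ± 0.51 and did not overlap in the 8 libraries. The triceps libraries numbered 57 had 5.08 and 4.00 CPM of Drp2, within the gastrocnemius range of 3.44 to 12.4 CPM, and with them the log2 difference was 1.64.

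The summed level of the 5 markers was 68.8 to 250 CPM in the gastrocnemius, against 20.3 to 28.5 CPM in the triceps. Mag, S100b, Sox10 and the other 4 listed markers of Schwann cells were not analysed here. How much nerve each sample held was not tested. After injury all 5 markers were called higher in the gastrocnemius, against 22.5% of all genes after T3 and 46.6% after T9, with medians of 2.39 and 2.67. All 5 were also called higher after median centring, where 12.3% of all genes were after T3 and 21.7% after T9.

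Transcription factors of limb position differed in a few members. Six2 had 15.7, 28.2, 17.4 and 10.6 CPM in the gastrocnemius, against 2.36, 4.59, 1.34 and 0.827 CPM in the triceps. En1 had 5.61, 8.33, 8.04 and 3.29 CPM in the gastrocnemius, against 2.47, 2.39, 0.977 and 1.05 CPM in the triceps. Both genes were higher in every gastrocnemius library, with log2 differences of 3.15 ± 0.50 for Six2 (adjusted p = 0.106 in limma) and 1.89 ± 0.43 for En1 (adjusted p = 0.265; SE). In En1 the triceps libraries numbered 57, at 3.79 and 3.87 CPM, lay above gastrocnemius replicate 4. Six2 and En1 were the 2 of 17 tested members of the patterning list that did not overlap, beside 3.63% of all genes, and the median of that list was 0.18, beside 0.27 for all genes, and −0.10 after median centring.

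Hoxd9 had 16.6, 16.9, 20.7 and 13.9 CPM in the gastrocnemius, against 7.64, 6.72, 5.92 and 6.32 CPM in the triceps. Hoxd8, 4.41 kb away on chromosome 2, had 52.0, 51.9, 48.4 and 39.3 CPM in the gastrocnemius, against 29.9, 26.7, 15.8 and 19.3 CPM in the triceps. Neither overlapped, at log2 differences of 1.34 ± 0.21 (adjusted p = 0.0880 in limma) and 1.10 ± 0.24 (adjusted p = 0.265; SE). Six2, En1, Hoxd9 and Hoxd8 all passed in the fits of 30 and of 28 libraries and after both injuries. Without the low-median libraries their differences were 3.22, 1.95, 1.38 and 1.03.

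Hoxa10 and Hoxa11 pointed the other way. Hoxa11 had 3.39, 3.55, 3.23 and 3.34 CPM in the gastrocnemius, against 4.27, 5.19, 4.46 and 4.06 CPM in the triceps, and Hoxa10 had 15.5 to 20.6 CPM in the gastrocnemius, against 20.6 to 23.6 CPM in the triceps. The groups did not overlap, in Hoxa10 by less than the rounding of its values, but the differences were −0.41 ± 0.22 and −0.36 ± 0.18 (SE) and passed in no fit with 8, 30 or 28 libraries. The 9 Hox genes tested had a median of −0.08. Of the hindlimb factors 1 of 8 was in the table, Tbx4, with 1.46 to 3.55 CPM in the gastrocnemius, against 1.10 to 2.79 CPM in the triceps (0.57 ± 0.42, adjusted p = 0.362 in limma), and it passed after T9 (1.20, adjusted p = 0.00284). The 5 forelimb factors listed were not analysed here. Skap2, an adaptor gene 177 to 245 kb from the Hoxa genes measured, chosen after its values were seen, had 3.06, 3.23, 3.74 and 2.25 CPM in the gastrocnemius, against 7.42, 7.25, 5.19 and 16.5 CPM in the triceps. It did not overlap (−1.44 ± 0.36, SE), and passed with 30 libraries (adjusted p = 0.000504) and with 28 (0.000627).

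**Figure D3:**
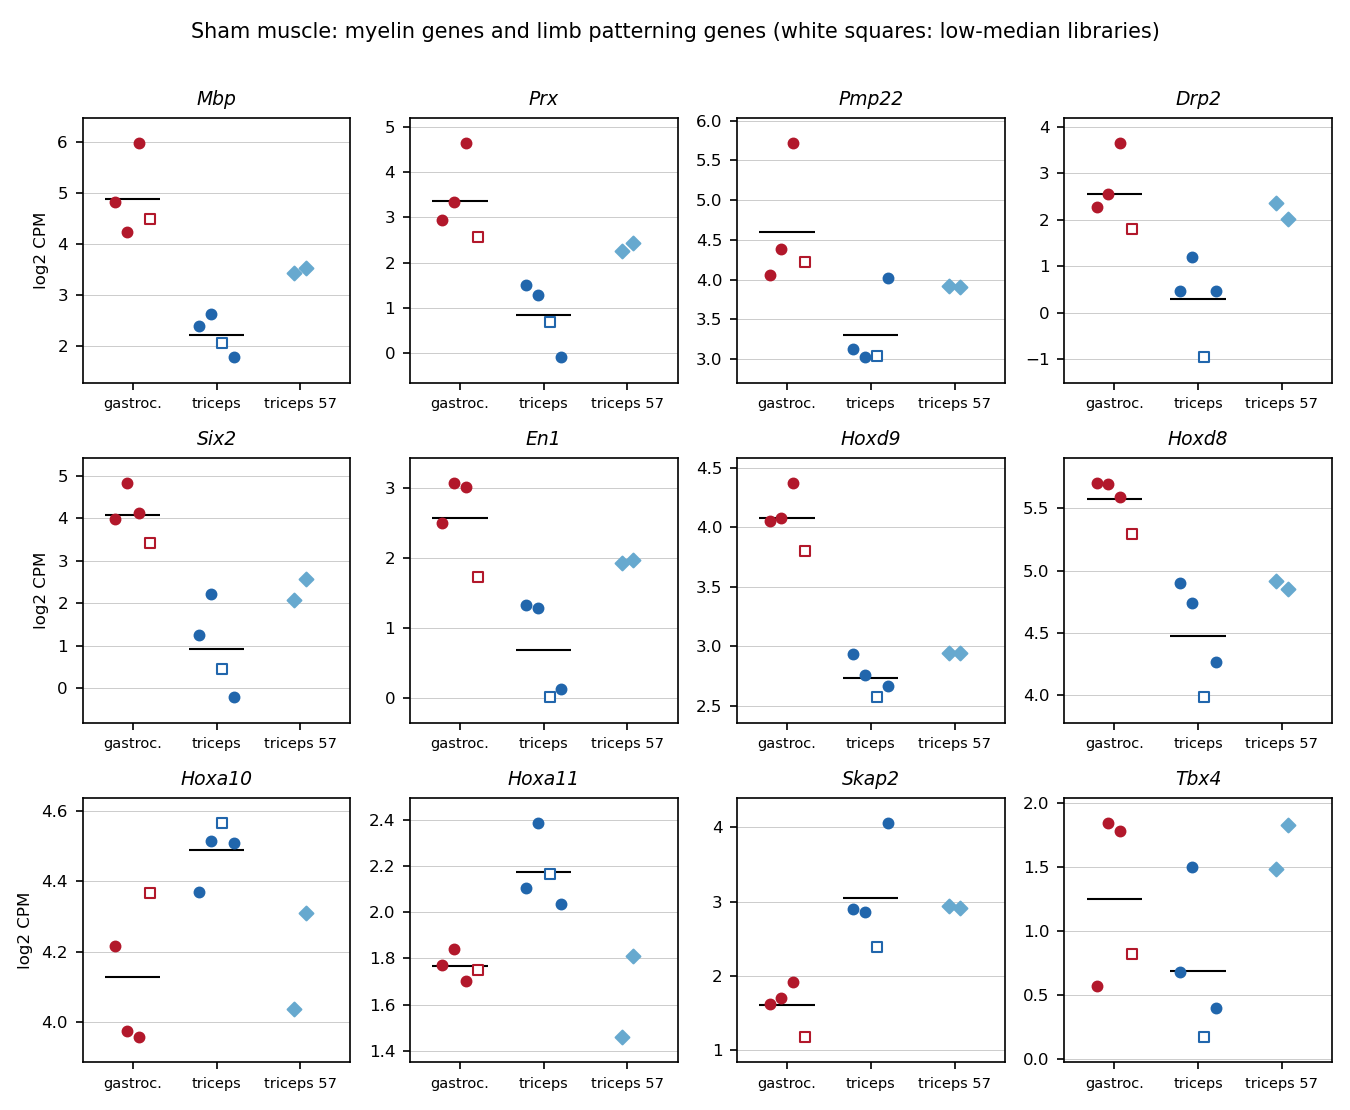
Log2 CPM of 4 myelin genes (top row), 4 limb patterning genes (middle) and Hoxa10, Hoxa11, Skap2 and Tbx4 (bottom) in sham muscle. Red is the gastrocnemius, dark blue the triceps and light blue the 2 triceps libraries numbered 57; white squares are low-median libraries and lines are means of 4. Mbp, Prx, Pmp22, Drp2, Six2, En1, Hoxd9 and Hoxd8 lie higher in the gastrocnemius, Hoxa10, Hoxa11 and Skap2 lie lower, and Tbx4 overlaps.

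Fibre genes gave large differences between single libraries and no call. Myh2, the myosin of fast oxidative fibres, had 1264, 2256, 3918 and 608 CPM in the gastrocnemius, against 655, 781, 202 and 149 CPM in the triceps. Only the lowest gastrocnemius library, replicate 4, overlapped, and the log2 difference was 2.20 ± 0.67 (SE, adjusted p = 0.265 in limma). The 2 triceps libraries numbered 57, at 3096 and 3284 CPM, lay within the gastrocnemius range. Myh4, the myosin of the fastest fibres, differed by 1.56 ± 0.55 and Myh1 by 0.77 ± 0.56, and Myh7, the slow myosin, by 0.59 ± 0.90 (SE).

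The 20 fast-fibre genes tested had a median of 0.25 and the 14 slow-fibre genes one of −0.23, beside 0.27 for all genes, with 0 called in either list (the fast-fibre median was −0.03 after median centring). Actn3 and Mylk2 were the 2 fast-fibre genes that did not overlap, of 20, and 0 of 14 slow-fibre genes did so, beside 3.63% of all genes. Tnnc1, slow troponin C, was at 3.04 CPM in gastrocnemius replicate 2, against 70.1 to 158 CPM in the other 3 gastrocnemius libraries and 36.8 to 192 CPM in the triceps. Tnnt1, slow troponin T, was low in the same library, at 11.7 CPM. Ampd1, the AMP deaminase of muscle, had 639, 497, 755 and 386 CPM in the gastrocnemius, against 226, 211, 155 and 205 CPM in the triceps (1.48 ± 0.25, SE, adjusted p = 0.121 in limma). The groups did not overlap, yet the libraries numbered 57 had 670.5 and 613 CPM, as high as the gastrocnemius. Tpm2, beta-tropomyosin, chosen after its values were seen, had 5207 to 6756 CPM in the gastrocnemius, against 8575 to 11859 CPM in the triceps, and passed with 30 libraries (−0.67 ± 0.24, SE, in the 8 libraries; adjusted p = 0.0137 with 30).

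Lists of energy metabolism had medians of opposite sign. Of 48 nuclear genes of the respiratory chain, 42 had a negative difference, with a median of −0.64, and 0 passed. Of 29 glycolysis and glycogen genes, 28 had a positive one, with a median of 0.61, beside 0.27 and 7530 positive of 11243 for all genes; 0 passed. Uqcrb, a subunit of complex III, had 391, 185, 197 and 498 CPM in the gastrocnemius, against 630.2, 326, 831 and 631 CPM in the triceps (−0.98 ± 0.39, SE, adjusted p = 0.265 in limma). Pygm, muscle glycogen phosphorylase, had 5322, 8823, 7996 and 2873 CPM in the gastrocnemius, against 2472, 4351, 1499 and 976 CPM in the triceps (1.52 ± 0.50, SE, adjusted p = 0.265). Both genes overlapped between the muscles. Slc16a3, a lactate transporter, overlapped too and differed by 1.06 ± 0.37 (adjusted p = 0.265, and 0.0463 in the limma fit of 30 libraries).

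Genes encoded in the mitochondrion took 10.8 ± 1.63% of reads in the gastrocnemius and 14.3 ± 2.13% in the triceps (SD, n = 4 each; exact two-sided permutation p = 0.0571, where 0.0286 is the smallest possible). Of 15 such genes, 12 had a negative difference and 0 passed, with a median of −0.30 that was 0.99 once trends on transcript length and GC were removed. The genes mt-Atp6 and mt-Atp8 did not overlap. Without the 2 ribosomal RNAs, the other 13 genes took 10.1% of reads in the gastrocnemius and 12.5% in the triceps (exact two-sided permutation p = 0.114). Paired by mouse number, the share of all 15 gave an exact sign-flip p of 0.125, the smallest possible there. With 28 libraries, less the low-median ones, 6 of the 15 were called lower in the gastrocnemius, beside 0.676% of all genes: mt-Nd3, mt-Co3, mt-Atp6, mt-Atp8, mt-Rnr1 and mt-Rnr2. With all 30 libraries 0 of the 15 were called, beside 0.64% of all genes. Without both low-median libraries the share of reads differed by −5.06 percentage points, against −3.45 with all 8. In the respiratory chain list that median was −0.04 after the same removal, and its genes had a median transcript length of 1307 bases, against 3302 for all genes.

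Lists of channel, calcium and junction genes had positive medians. The 18 ion channel and pump genes had a median of 0.96 and the 20 calcium handling genes 0.61. The 19 neuromuscular junction and denervation genes had 0.79, beside 0.27 for all genes, with 0 called in each list. With length and GC trends removed these 3 medians were 0.55, 0.44 and 0.43, beside 0.25 for all genes. With the libraries numbered 57 they were 0.51, 0.27 and 0.34, beside 0.15 for all genes. Kcnj11, the pore of the ATP-sensitive potassium channel, had 158, 137, 176 and 107 CPM in the gastrocnemius, against 87.0, 89.6, 57.02 and 39.6 CPM in the triceps. Musk, the receptor kinase that organises the neuromuscular junction, had 19.03, 26.6, 20.8 and 11.4 CPM in the gastrocnemius, against 7.75, 7.31, 2.56 and 5.42 CPM in the triceps. Neither overlapped, at 1.13 ± 0.29 and 1.80 ± 0.39 (SE, adjusted p = 0.265 for both in limma). Kcnj11 passed with 30 and with 28 libraries (0.0493 and 0.0435), and Musk did not. Ryr1, the calcium release channel, differed by 1.76 ± 0.55 and overlapped, with 1435 to 4848 CPM in the gastrocnemius, against 424 to 1814 CPM in the triceps.

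All 42 cytosolic ribosomal protein genes tested had a negative difference, between −1.32 and −0.34, with a median of −0.89 and 0 called. Rps14 had 872, 338, 405 and 1963 CPM in the gastrocnemius, against 1495, 731, 3030 and 2727 CPM in the triceps (−1.32 ± 0.61, SE, adjusted p = 0.265 in limma). The muscles overlapped, and gastrocnemius replicates 1 and 4 stood within the triceps range. Without both low-median libraries the median was −1.08, with the libraries numbered 57 it was −0.42, and with length and GC trends removed −0.41. These transcripts are short, with a median of 1180 bases. The 32 proteasome genes had a median of −0.16 (0.21 with length and GC trends removed). The 18 genes of atrophy ligases and FoxO factors had one of 0.74 (0.41 with these trends removed), with 0 called in either list. Fbxo32, the ubiquitin ligase atrogin-1, had 134 to 325 CPM in the gastrocnemius, against 100.4 to 243 CPM in the triceps, and Trim63, the ligase MuRF1, had 189 to 422 CPM in the gastrocnemius, against 222 to 531 CPM in the triceps. The 17 clock genes had a median of 0.74, and 0.30 with length and GC trends removed, beside 0.25 for all genes after that removal. Of the clock genes 3, Hlf, Ciart and Rora, were higher without overlap, beside 2.3% of all genes.

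Markers of vessels, fat and connective tissue were also read. The 14 endothelial markers had a median of 1.03 (0.44 with the libraries numbered 57) and a summed level of 159 to 483 CPM in the gastrocnemius, against 99.9 to 238 CPM in the triceps. Vwf, von Willebrand factor, had 11.03, 30.6, 27.1 and 7.79 CPM in the gastrocnemius, against 5.001, 7.51, 2.01 and 3.46 CPM in the triceps, with no overlap (2.01 ± 0.52, SE, adjusted p = 0.265 in limma). The 2 number-57 triceps libraries had 24.4 and 23.4 CPM of Vwf, within the gastrocnemius range. The 10 mural and smooth muscle markers had a median of 0.83, the 9 adipocyte markers 0.82, the 29 collagen and matrix genes 0.42 (−0.11 with length and GC trends removed) and the 14 fibroblast markers 0.05 (−0.23 after median centring). Myl9, a smooth muscle myosin light chain, was higher in every gastrocnemius library (0.99 ± 0.26, SE) and passed with 30 libraries (adjusted p = 0.0400). The 10 macrophage markers had a median of −0.59, with Lyz2 at 705 CPM in triceps replicate 4 against 16.01 to 25.9 CPM in the other triceps libraries. Plin1, the lipid droplet coat protein, and Lipe, hormone-sensitive lipase, are both adipocyte markers. They passed with 28 libraries (adjusted p = 0.0499 and 0.0376 in limma) and not with all 30. None of these lists held a call in the 8 libraries, the 8 neutrophil and 6 mast cell markers were not analysed here, and the part of other cells in the results was not tested.

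**Figure D4:**
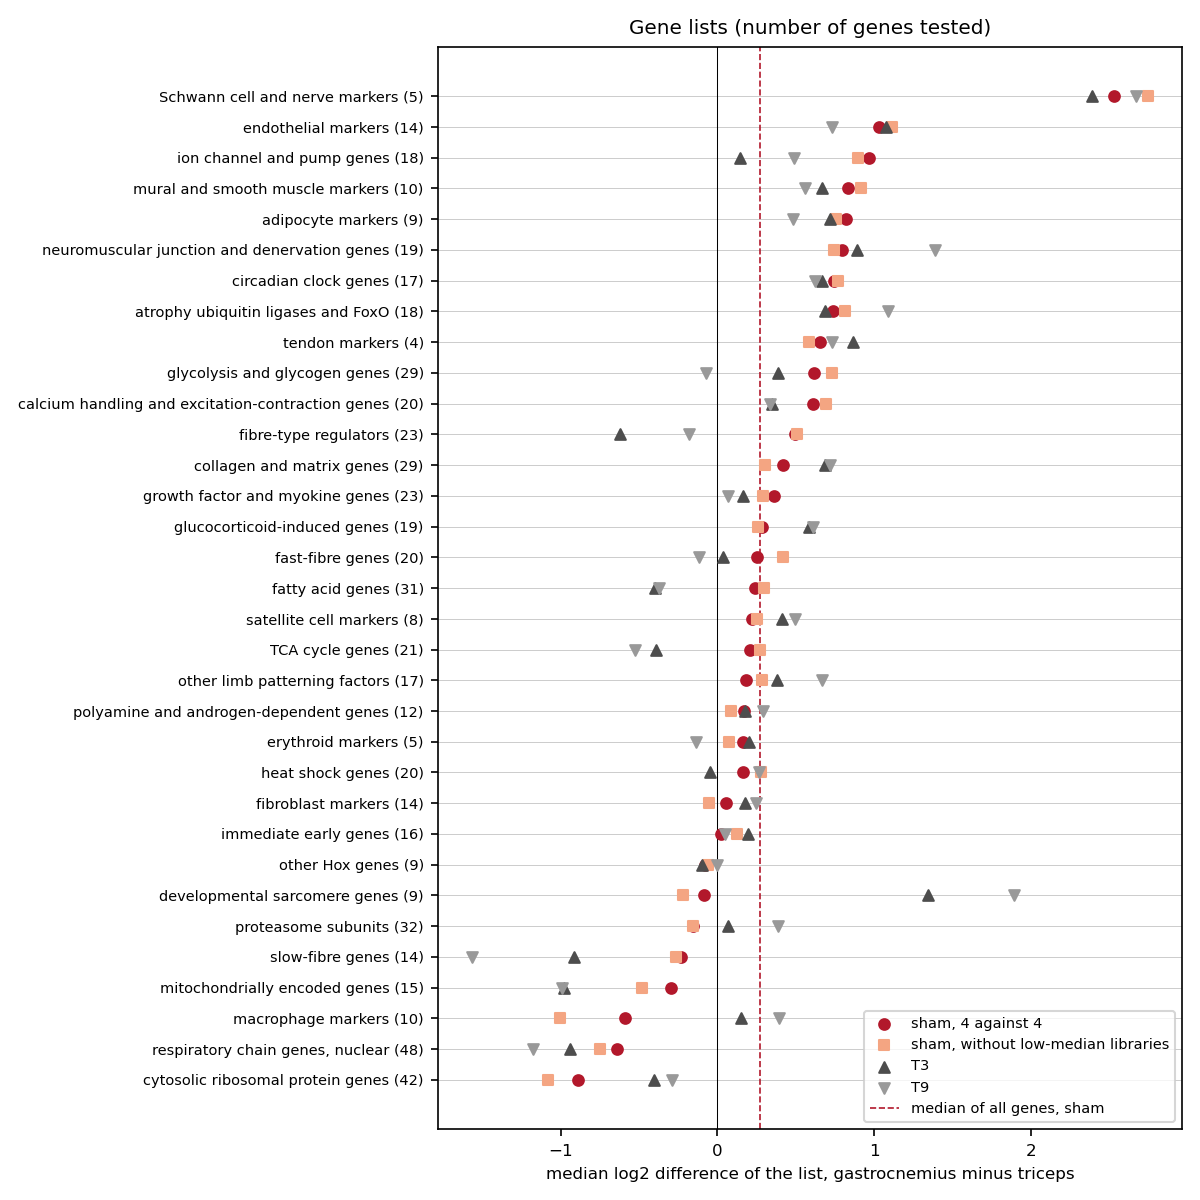
Median log2 difference, gastrocnemius minus triceps, of gene lists with 4 or more genes tested (number in brackets): red circles for sham, orange squares for sham without the low-median libraries, triangles for T3 (up) and T9 (down). The dashed line is the sham median of all genes, 0.27. Schwann cell markers lie at 2.53 and ribosomal protein genes at −0.89 in sham.

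H19 and Rian, both long non-coding RNAs expressed from the maternal chromosome, were lower in every gastrocnemius library. H19 had 951, 738, 756 and 1036 CPM in the gastrocnemius, against 1585, 1588, 1218 and 1315 CPM in the triceps (−0.72 ± 0.21, SE). Rian, chosen after its values were seen, had 7.54, 10.7, 7.81 and 8.83 CPM in the gastrocnemius, against 14.9, 19.9, 11.6 and 42.3 CPM in the triceps (−1.18 ± 0.37, SE). Neither passed in the 8 libraries (adjusted p = 0.265 in limma), and both passed with 30 (0.0348 and 0.0303) and with 28 (0.0190 and 0.0134).

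Whether the muscle difference itself was another after injury was tested in the 24 libraries numbered 60, as the sham difference minus the mean of those after T3 and T9. In 311 of 11249 genes (2.76%; 198 with a higher sham difference, 1.76%, and 113 with a lower one, 1.0%) it passed in limma. Of the 8 sham genes only Gpx3 was among them, at −1.22 (adjusted p = 0.00565): its muscle difference was −1.57 in sham, −0.01 after T3 and −0.70 after T9. Gpx3 reached 265 to 570.3 CPM in the gastrocnemius after T3, against 401 to 455 CPM in the triceps, so the muscles overlapped there.

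Myh2 had a muscle difference of 2.20 in sham, −1.37 after T3 and −1.41 after T9 (adjusted p = 0.00332 for the difference between them). It had 342 to 1006 CPM in the gastrocnemius after T3, against 834 to 2398 CPM in the triceps. Idh2, the mitochondrial isocitrate dehydrogenase, showed the same pattern, at 0.70 in sham, −1.05 after T3 and −1.79 after T9 (adjusted p = 8.49e-05). In Pdlim1 and Ptpn3, chosen after their values were seen, sham differences of 1.19 and 1.49 stood beside −0.75 and −0.53 after T3 and −0.57 and −0.92 after T9. Lrrc52, a subunit of potassium channels also chosen after its values were seen, had 1.65 to 4.15 CPM in the gastrocnemius, against 0.301 to 1.69 CPM in the triceps of sham mice. It had 0 reads in all 4 gastrocnemius libraries after T3, against 2.68 to 6.80 CPM in the triceps.

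Of the 14 slow-fibre genes tested, 4 had a sham difference unlike that after injury, beside 2.76% of all genes: Myl2, Casq2, Csrp3 and Myoz2. These 4 were named after their values were seen. Casq2, the calsequestrin of slow and heart muscle, had 39.3, 16.9, 41.2 and 26.9 CPM in the gastrocnemius of sham mice, against 38.6, 22.6, 33.6 and 53.0 CPM in the triceps, and the muscles overlapped. After T3 it had 9.51 to 11.4 CPM in the gastrocnemius, against 35.9 to 64.3 CPM in the triceps, with no overlap. The median of the list was −0.23 in sham, −0.91 after T3 and −1.56 after T9, with 0, 8 and 10 of 14 genes called lower in the gastrocnemius, beside 0.0178%, 8.37% and 11.2% of all genes. After median centring 8 and 11 were called lower after T3 and T9, beside 14.8% and 25.0% of all genes.

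**Figure D5:**
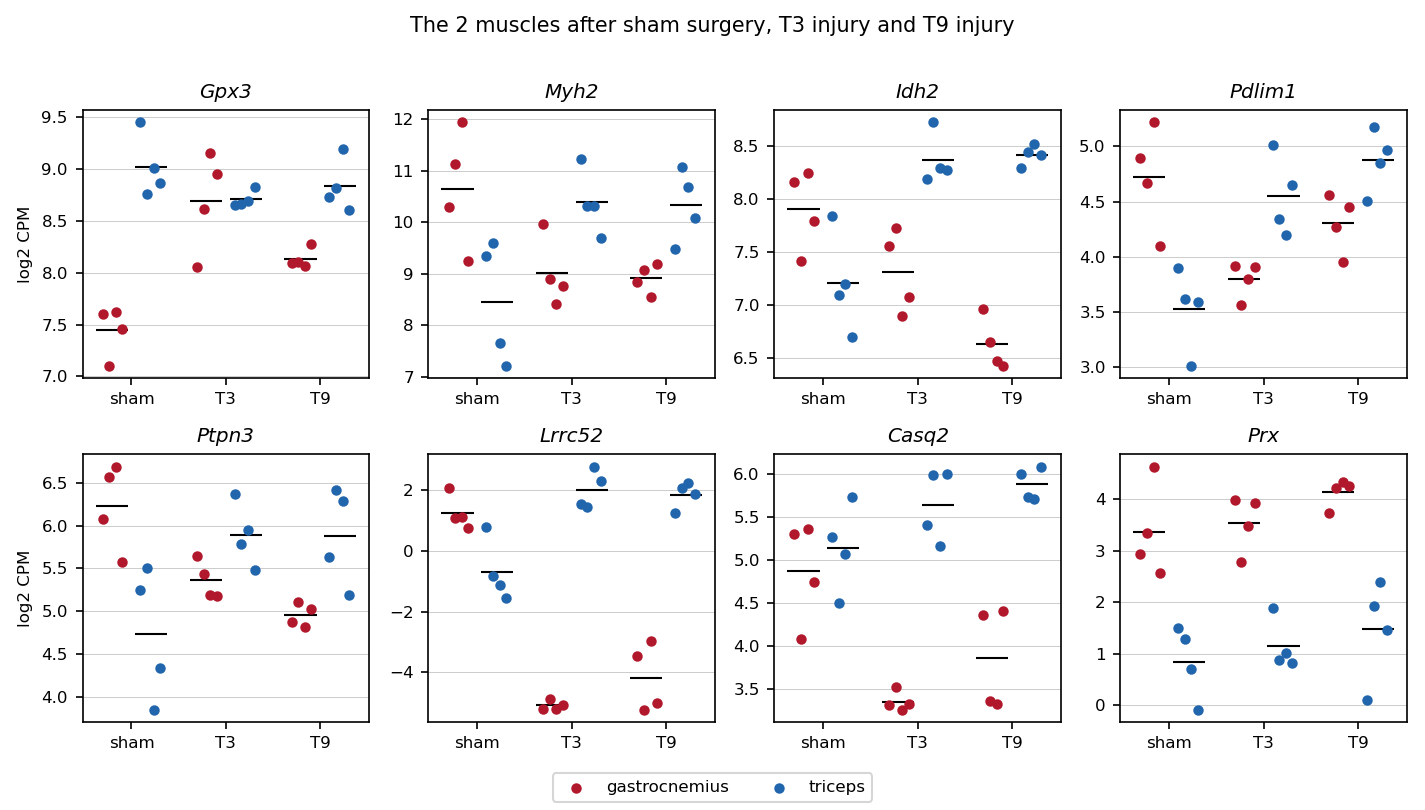
Log2 CPM of 8 genes in the gastrocnemius (red) and triceps (blue) after sham surgery, T3 injury and T9 injury; points are the 24 libraries numbered 60 and lines are means of 4. Gpx3 is lower in the sham gastrocnemius and overlaps after T3, Myh2, Idh2, Pdlim1, Ptpn3 and Lrrc52 have means on opposite sides in sham and after injury, Casq2 separates after injury, and Prx is higher in the gastrocnemius in all 3 conditions.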

How the data were processed

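PolyA RNA of male mouse muscle was sequenced as strand-specific pairs, per the labels' protocols. For 11249 genes in 30 libraries the authors deposited log2 values, made with HISAT2 2.1.0, Subread 1.5.1, featureCounts, limma and the GRCm38 build among the names in the submitters' processing notes. They behave as log2 CPM after adding 0.5 reads, since they turn back into whole reads (tolerance 0.01) at 100% of entries. A symbol was found for 11240 gene IDs and for 9 none. Gene positions are from GENCODE on GRCm38. Replicates differed by more than sampling noise (chi-square per degree of freedom 23.6 to 380).

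The test was limma 3.58.1 in R 4.3.3 with a variance trend, gastrocnemius minus triceps, unpaired and two-sided, on the 11243 genes that reached log2 0 in 4 or more of the 8 libraries, with Benjamini-Hochberg adjustment across these genes and a threshold of 0.05. A count test had been foreseen for a table of counts, which this is not. The fit was tried on simulated reads with known changes. These held no shift between library medians, no length trend and no mouse effect, so the trial does not speak for libraries like these. The mouse number was inferred from the descriptions. Deviations from the group mean correlated at 0.010, 0.861, −0.638 and 0.520 within mice, and triceps replicate 3 correlated at 0.748 with gastrocnemius replicate 4. The numbers were therefore not taken to pair the libraries. Paired results are given for the counts of calls and for a few values only.

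Members, lists (40, with 722 genes) and tests were chosen with earlier results of these data known. Named genes were the 15 largest called differences per direction with a mean log2 of at least 1 in the higher muscle and no predicted gene, up to 4 members per list by adjusted p, all limb factors and a panel of fibre, atrophy, immune and satellite cell genes. Some results are not reported here.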

Additional observations from a re-analysis of the deposited data

Results flagged for a closer look

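In some genes 1 library of 4 stood far from the other 3 of its muscle, which chance gives in about 1 of 20 groups; 396 groups were looked at and 18 stood out. Triceps replicate 4 had 705 CPM of Lyz2, 73.3 CPM of C1qb and 27.5 CPM of Myog, against 16.01 to 25.9, 3.32 to 4.92 and 2.93 to 3.32 CPM in the other triceps libraries, and 16.2 CPM of Pmp22 and 23.9 CPM of Cfd. Triceps replicate 2 had 6.65 CPM of Hoxa13, 36.8 CPM of Tnnc1, 263 CPM of Actc1 and 2699 CPM of mt-Rnr1. Triceps replicate 3, a low-median library, had 11859 CPM of Tpm2, above the other 3. Gastrocnemius replicate 3 had 11.9 CPM of Setbp1, 6.92 CPM of Myh7b, 75.5 CPM of Acvr1b and 12.2 CPM of Sfrp5, each above the other 3. Gastrocnemius replicate 2 had 11.7 CPM of Tnnt1, below the others, and 1370.2 CPM of Amd1 and 293 CPM of its close copy Amd2, above them, and gastrocnemius replicate 4, the other low-median library, had 31.1 CPM of Rasd2.

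The muscle difference in sham minus that after injury passed in limma in 17 of the 195 named genes, beside 2.76% of all genes. Pdlim1, Ptpn3, Lrrc52, Casq2, Myl2, Csrp3 and Myoz2 were chosen after their values were seen, so their passing is not independent of that choice. The value was positive in Myh2 (3.59), Idh2 (2.12), Dusp1 (2.09), Hspb6 (1.51), Alpl (2.26), Pdlim1 (1.85), Ptpn3 (2.22), Casq2 (1.89), Myl2 (2.94), Csrp3 (1.87) and Myoz2 (2.19) on the log2 scale. In Lrrc52 it was 8.48, a fitted value that depends on the offset of 0.5 reads because gastrocnemius libraries were at 0 reads after T3. It was negative in Gpx3 (−1.22), Barx2 (−1.18), Hdac4 (−1.88), Scx (−2.04) and Myog (−3.04), and adjusted p ran from 2.95e-08 for Lrrc52 to 0.0431 for Csrp3. Myog, the myogenic factor that denervation induces, had a muscle difference of −0.33 in sham, 2.001 after T3 and 3.42 after T9. Hdac4, a repressor that rises in denervated muscle, had 1.03 in sham, 2.55 after T3 and 3.29 after T9.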

How the results depend on the processing

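The count of genes called in sham, 8, moved with the treatment of the libraries. It was 72 with all 30 libraries in the fit and 236 with these less the low-median ones. It was 13 with the mouse number as a random effect. With that and without the low-median libraries it was 155, where only mouse numbers 1 and 2 kept both muscles. It was 5 with the replicate block (fixed) or without a variance trend, 4 after median centring, 3 with voom weights and median-of-ratios scaling, and 2 with voom weights alone, robust empirical Bayes, quantile normalization or a pseudocount of 1 CPM. It was 1 with the libraries numbered 57 or without the 3 libraries of lowest median, and 0 without both low-median libraries. Leaving out 1 library gave 0 to 3. Library weights gave 6882, a fit whose weights stopped before convergence. The replicate block in mice 1 and 2 only gave 2693, from 2 libraries per muscle, which leave 1 residual degree of freedom. That count and the values of that fit thus have little spread behind them. Without a filter, or with a filter at a log2 value of 2, it was 8. It was 10 with length and GC trends removed, chosen after seeing the data like the 28-library fit and the random effect without low-median libraries, and 11 with the library median as a covariate. The causes were not tested. Over the values of single named genes in these settings, called genes stayed past the threshold in 107 and fell short of it in 125. The other genes moved past it in 359 and were marked as reversed in 4, a mark that did not take in every change of sign. All 8 genes had the same sign in each of these settings.

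The difference between the library medians was 0.28 on the log2 scale and ran from 0.17 to 0.38 without 1 library; the share of mitochondrially encoded genes differed by −3.45 percentage points and by −4.32 to −2.62. Leaving out 1 library gave 1279 to 5105 calls after T3, against 3470 with all, and 5378 to 6866 after T9. Median centring turned the excess of higher calls into one of lower calls after both injuries, with 1384 higher and 1668 lower after T3 and 2446 and 2815 after T9. The T3 count was 1279 without gastrocnemius replicate 3, 1481 without replicate 4 and 2187 without replicate 1, and 1939 without triceps replicate 3 and 2250 without replicate 2. The count of genes with another difference after injury was 624 with the replicate block and 311 without. Directions reversed in some settings, and not only in the genes given here. Myh7 had −1.40 with the block in mice 1 and 2 only, and 0.59 before. Myh3 had 1.93 with library weights and 0.78 with mice 1 and 2 only, and −0.07 before. Cd68 had 2.02 with library weights and −0.62 before, and none of these genes was called in the 8 libraries. Median centring moved the median difference of all genes from 0.27 to −0.01, and the medians of fast-fibre, fatty acid, TCA cycle and other limb patterning genes then lay at −0.03, −0.04, −0.07 and −0.10. Depth was not varied.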
